A study of Mus musculus with 12 samples.

Results

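Hox cluster genes were taken as every array probe whose annotated gene symbol is Hoxa, Hoxb, Hoxc or Hoxd followed by a number. The rule used symbols only and no measured value. It found 47 of the 46657 probes, for 36 of the 15357 annotated genes, in the mouse HoxA, HoxB, HoxC and HoxD clusters. The HoxA cluster on chromosome 6 was represented by 15 probes for 10 genes, HoxB on chromosome 11 by 13 probes for 10 genes, HoxC on chromosome 15 by 11 probes for 8 genes, and HoxD on chromosome 2 by 8 probes for 8 genes. There were 10 genes with more than 1 probe, and these probes are kept apart below.

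Transcript levels were measured in total RNA on Illumina bead arrays, 12 in all and 3 in each of 4 groups. MEF were neomycin-resistant primary embryo fibroblasts of strain FVB/N, called PMEF_NL. The sphere cells, also FVB/N, had been obtained from fibroblasts in medium with AlbuMAX I, a lipid-rich serum albumin, and were sampled at passage 5 and at passage 15. MES were J11 embryonic stem cells of strain 129/Sv, derived from the inner cell mass and used as the study's control. The labels do not say whether the 3 arrays of a group came from separate cultures, so p-values below measure only the spread between these arrays, which may be technical.

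Hox genes encode homeodomain transcription factors that give cells a position along the body axis. Within a cluster, genes with low numbers are used early and towards the head, and genes with high numbers later and towards the tail. Fibroblasts keep in culture much of the Hox pattern of the body site they came from. In embryonic stem cells the clusters are largely silent and covered by Polycomb marks, and retinoic acid is a classic signal that opens them from their low-numbered end.

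Values are log2 intensities after background correction and quantile normalization, and a probe counted as above background on an array where its deposited detection p-value was under 0.05. Between 33.8% and 40.9% of all probes were above background on an array, fewest on chip 1, which carried all passage 15 and MES arrays. Chip 2 carried replicates 1 and 2 of MEF and passage 5, and chip 3 replicate 3 of both. Chip cannot be told apart from group when MEF or passage 5 are set against passage 15 or MES, nor strain in any comparison with MES. The arrays labelled MEF detected all 11 measured fibroblast marker genes, with a summed raw intensity of 35300 to 47400. They also detected 7 or 8 of 9 pluripotency marker genes, among them Pou5f1, whose probe 2711562 read 12.20, 12.08 and 11.41 there and 11.99, 11.70 and 11.97 on the MES arrays, while its probe 1217100 read 11.85, 11.78 and 11.01 there and 12.63, 12.67 and 12.78 on the MES arrays. Zfp42, another pluripotency gene, ranged between 10.50 and 11.37 on the arrays labelled MEF and between 9.99 and 10.62 on the MES arrays. The pluripotency sum was 13300 to 34500 on the arrays labelled MEF, 29400 to 44000 at passage 5, 18400 to 22300 at passage 15 and 20600 to 22500 on the MES arrays. Marker sums are of raw, unnormalized intensity. The array median of raw intensity was 5.8 to 9.4 on chips 2 and 3 and 3.8 to 4.9 on chip 1. Sums on chip 1 are therefore not put in order with those on chips 2 and 3. On the normalized scale Pou5f1 at passage 5 read 11.50, 11.67 and 11.05 with probe 1217100 and 12.09, 11.91 and 11.88 with probe 2711562. Zfp42 read 11.15, 11.09 and 10.94 there. MEF below therefore means the arrays so labelled, in every comparison, and whether they held fibroblasts alone was not tested. The fibroblast sum was 10900, 8120 and 3270 on the passage 5 arrays, 1760 to 2120 at passage 15 and 3060 to 3470 on the MES arrays. Primitive endoderm markers such as Sox17 and Gata6 summed to 5900 to 7450 at passage 5 and to 416 to 644 in the other groups. Macrophage and blood markers were above background for at most 1 of 6 genes on any array.

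Of the 36 Hox genes, 17 were above background on all 3 arrays of at least 1 group, and 13 were above background on no array. Of the 47 probes, 20 were above background on no array, and 19 were above background on all 3 arrays of at least 1 group. Probes above background on all 3 arrays of a group numbered 15 for MEF, 14 for passage 5, 11 for passage 15 and 7 for MES. By cluster, the 19 probes were 4 of 15 in HoxA, 8 of 13 in HoxB, 6 of 11 in HoxC and 1 of 8 in HoxD. The heat map of all 47 probes shows that the lit probes lay in the first to middle part of HoxA, through most of HoxB, in the middle and end of HoxC, and at Hoxd9.

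**Figure D1:**
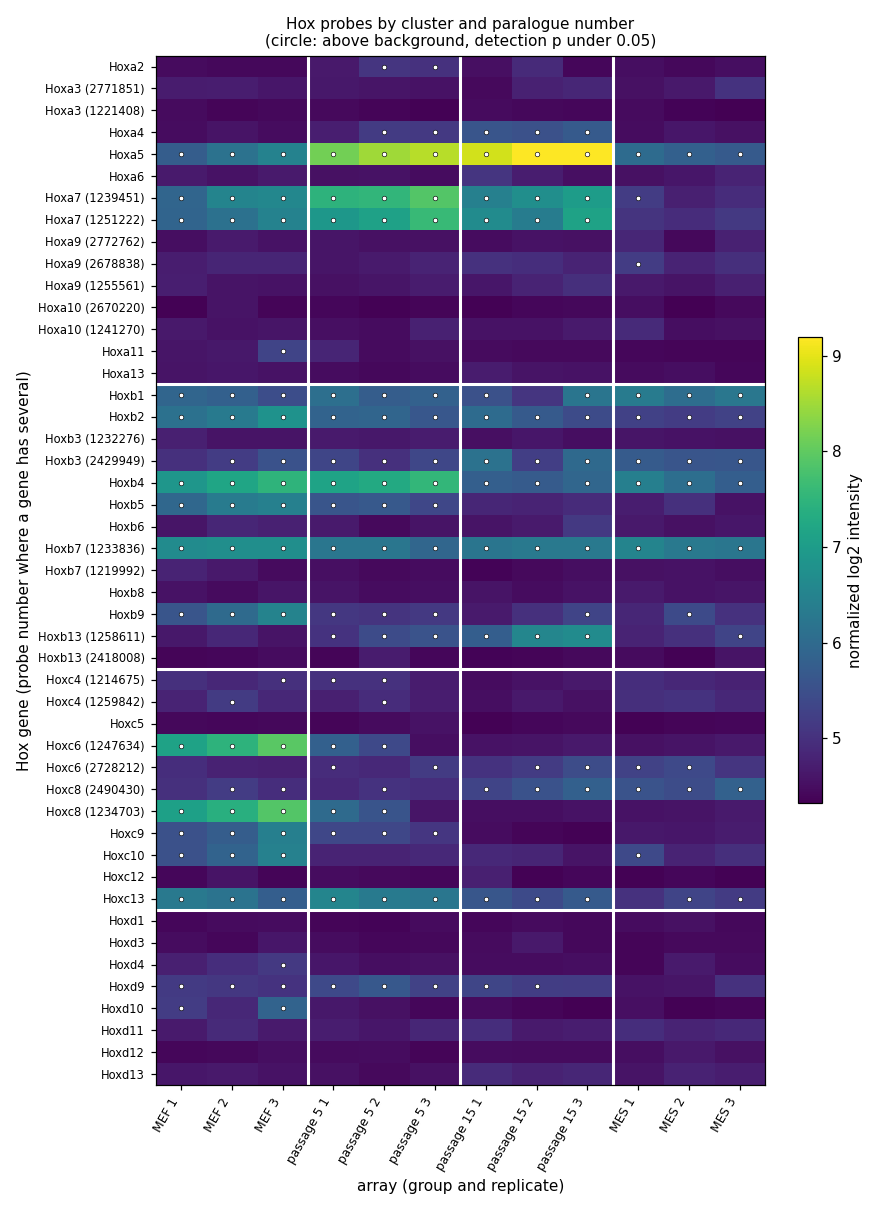
Normalized log2 intensity of each of the 47 Hox probes (rows, by cluster and gene number) on each of the 12 arrays (columns); a circle marks a probe above background on that array. Hoxa5 is brightest at passages 5 and 15, the Hoxc6 and Hoxc8 probes 1247634 and 1234703 are bright on the MEF arrays, and most rows of HoxD are dim throughout.

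Passage 5 spheres were set against the arrays labelled MEF. Hoxa5 and Hoxa7 rose, and 1 probe each of Hoxc6, Hoxc8 and Hoxc10 fell. A probe was called at an adjusted p under 0.05 over all 46637 analysed probes with a change of at least 2-fold. In limma, 6 of 47 Hox probes (12.8%) were called, against 3.99% of all probes. Of these, 3 were higher (1.60% of all probes were called higher), the Hoxa5 probe and both Hoxa7 probes, all among the 15 HoxA probes, and 3 were lower (2.39% of all), all among the 11 HoxC probes. The median difference over the 47 probes was -0.04, and 0 over all probes, but 20 of the 47 were above background on no array, so this median does not describe the members that were measured.

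In passage 15 spheres set against MEF, Hoxa4, Hoxa5 and 1 of 2 Hoxb13 probes rose, and 3 HoxB and 4 HoxC probes fell. The call took in 10 of 47 Hox probes (21.3%), against 11.7% of all probes. There were 3 higher (5.49% of all), Hoxa4, Hoxa5 and Hoxb13, and 7 lower (6.26% of all), Hoxb4, Hoxb5, Hoxb9, Hoxc6, Hoxc8, Hoxc9 and Hoxc10. The median was 0 over the Hox probes and 0.03 over all probes. Of these 10, 7 concerned a probe at background on all 3 arrays of 1 group, where only a bound of the fold is measured. Both comparisons used the same MEF arrays, and their values are therefore given side by side and not correlated.

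Between passage 15 and passage 5 spheres, 1 of 47 Hox probes (2.13%) was called, Hoxb4, which was lower, against 8.56% of all probes in either direction, 3.79% called higher and 4.77% called lower. The Hox median was -0.03, and 0.02 over all probes. This count rested on single arrays: it was 4 without passage 5 replicate 3, and 2 without passage 5 replicate 2, passage 15 replicate 1 or passage 15 replicate 3. It was 6, all lower, when arrays were scaled to a common median in place of quantile normalization. With that scaling 14.1% of all probes were called.

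Against MES, every called Hox probe was higher in the other group. Passage 5 spheres had 5 of 47 called (10.6%; 6.19% of all probes, 3.94% higher and 2.26% lower), for Hoxa5, Hoxa7, Hoxb4 and Hoxc13. Passage 15 spheres had 5 called (10.6%; 2.68% of all probes, 1.42% higher and 1.25% lower), for Hoxa4, Hoxa5, Hoxa7 and Hoxb13. MEF had 8 called (17.0%; 8.65% of all probes, 5.18% higher and 3.47% lower), for Hoxa7, Hoxb2, Hoxb4, Hoxb5, Hoxc6, Hoxc8 and Hoxc9, and this count was 5 without MEF replicate 3. Hox medians were 0.01, -0.02 and 0.07 in these 3 comparisons, and -0.02, 0 and -0.03 over all probes. On the authors' deposited normalized values the 3 counts were 3, 3 and 2 of 47. There 3.44%, 1.33% and 5.11% of all probes were called.

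**Figure D2:**
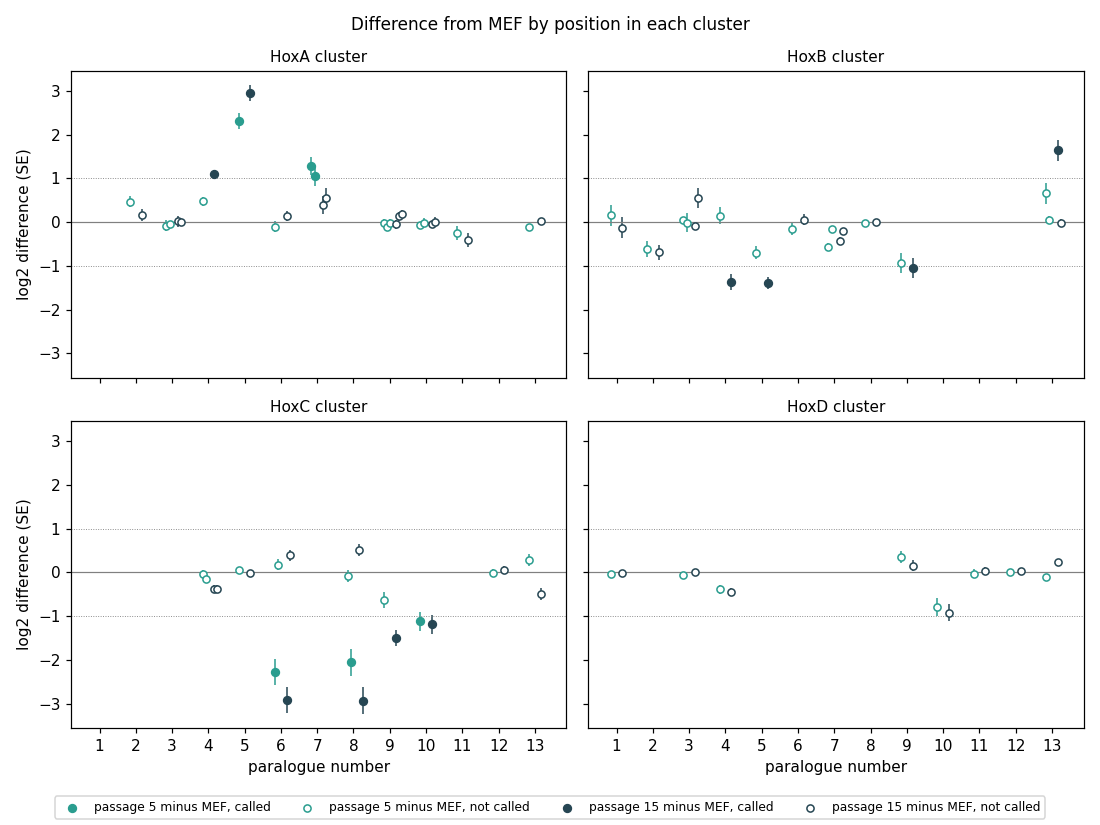
Difference from MEF (log2, with its SE) of every Hox probe by its number within the cluster, for passage 5 and passage 15 spheres; filled points were called and dotted lines mark a 2-fold difference. Called rises lie at numbers 4, 5 and 7 of HoxA and 13 of HoxB, called falls at 4, 5 and 9 of HoxB and 6, 8, 9 and 10 of HoxC, and no HoxD probe was called.

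In the HoxA cluster, Hoxa5, a regulator of lung development and of the neck-to-thorax transition, was higher in the spheres than in both other groups. Its probe read 5.75, 6.15 and 6.47 on the MEF arrays, 8.15, 8.49 and 8.66 at passage 5, 8.85, 9.18 and 9.19 at passage 15, and 6.03, 5.81 and 5.69 on the MES arrays. All 6 sphere arrays lay above all 6 MEF and MES arrays. The difference was 2.31 for passage 5 over MEF (SE 0.191, 4.95-fold, limma adjusted p = 7.78e-05), and it was 2.37 within chip 2 and 2.19 within chip 3. For passage 15 over MEF it was 2.95 (7.74-fold), for passage 5 over MES 2.59 (6.02-fold) and for passage 15 over MES 3.23 (9.41-fold). Passage 15 exceeded passage 5 by 0.65 (SE 0.191, limma adjusted p = 0.0301), short of the 2-fold needed for a call, and the direction turned with median scaling (-0.21, limma adjusted p = 0.312). The raw intensities overlapped, with 300 to 448 at passage 15 and 446 to 559 at passage 5, and no order of these passages is drawn for Hoxa5. MEF and MES overlapped.

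Hoxa7, which helps to pattern the thoracic segments, was measured by a pair of probes that gave the same order of group means after quantile normalization. Probe 1239451 read 5.91, 6.51 and 6.58 on the MEF arrays, 7.46, 7.52 and 7.88 at passage 5, 6.44, 6.72 and 7.02 at passage 15, and 5.18, 4.74 and 4.94 on the MES arrays. Probe 1251222 read 5.88, 6.13 and 6.47 in MEF, 6.90, 7.11 and 7.61 at passage 5, 6.66, 6.37 and 7.12 at passage 15, and 5.06, 4.94 and 5.13 with the MES arrays. The passage 5 arrays were above all MEF arrays with both probes, whereas passage 15 overlapped MEF, and MES was lowest. With median scaling the excess over MES was 1.37 and 1.29 at passage 15 and 1.59 and 1.35 in MEF. No order of passage 15 and MEF is drawn for Hoxa7. Passage 5 exceeded MEF by 1.28 (SE 0.208, limma adjusted p = 0.00262) with the one probe and by 1.05 (SE 0.226, limma adjusted p = 0.013) with the other. On the authors' values both calls were lost (0.96 and 0.75). The second was also lost with an offset of 50 (0.78), within chip 2 alone (1.00), without MEF replicate 1 (0.91) and without passage 5 replicate 3 (0.84).
Set against MES, probe 1239451 was 2.67 higher at passage 5, 1.78 higher at passage 15 and 1.39 higher in MEF on the log2 scale. Probe 1251222 was above background on no MES array, so its fold has only a bound, computed by setting each such array at the lowest signal of its probes above background or, if higher, at its own value. It was at least 4.25-fold higher at passage 5, at least 3.03-fold higher at passage 15 and at least 2.06-fold higher in MEF than in MES. The MEF call for this probe was lost without MEF replicate 3 (0.96). With probes 1239451 and 1251222 alike, the MEF call against MES was lost on the authors' values (0.82 and 0.64). It was also lost for both with an offset of 50 (0.83 and 0.66).

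Hoxa4, a gene that patterns the neck region, read 4.48, 4.57 and 4.49 on the MEF arrays, 4.73, 5.16 and 5.12 at passage 5, 5.61, 5.53 and 5.69 at passage 15, and 4.49, 4.61 and 4.53 on the MES arrays. It was above background on 2 passage 5 arrays, on all 3 passage 15 arrays and on none of the others. Passage 15 was at least 1.55-fold above MEF (fitted difference 1.09, SE 0.103, limma adjusted p = 2.85e-05) and at least 1.41-fold above MES (fitted difference 1.06, SE 0.103, limma adjusted p = 2.84e-04). Both calls were lost with median scaling, with an offset of 50 and on the authors' values. The remaining HoxA members, Hoxa2, Hoxa3, Hoxa6, Hoxa9, Hoxa10, Hoxa11 and Hoxa13, passed the detection rule in no group.

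The promoters of 3 genes are shown because the first pair rose together at passage 5 and the last was the member called between the passages. RefSeq promoter windows of 300 bases (build GRCm38.p6) were matched for 21 of the 36 genes, as 23 windows. They are written 5′ to 3′ along the gene, with AGGTCA, the half-site of retinoic acid and other nuclear receptors, in capitals wherever it occurs on either strand. The windows are chr6:52204538-52204837 (minus strand) for Hoxa5, chr6:52218524-52218823 (minus strand) for Hoxa7 and chr11:96318017-96318316 (plus strand) for Hoxb4.
Hoxa5: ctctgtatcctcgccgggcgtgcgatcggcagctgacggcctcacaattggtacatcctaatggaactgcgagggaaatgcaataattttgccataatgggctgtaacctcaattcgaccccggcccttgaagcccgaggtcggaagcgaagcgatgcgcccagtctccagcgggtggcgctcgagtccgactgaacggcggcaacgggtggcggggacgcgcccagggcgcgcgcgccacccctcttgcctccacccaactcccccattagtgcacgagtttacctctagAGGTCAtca
Hoxa7: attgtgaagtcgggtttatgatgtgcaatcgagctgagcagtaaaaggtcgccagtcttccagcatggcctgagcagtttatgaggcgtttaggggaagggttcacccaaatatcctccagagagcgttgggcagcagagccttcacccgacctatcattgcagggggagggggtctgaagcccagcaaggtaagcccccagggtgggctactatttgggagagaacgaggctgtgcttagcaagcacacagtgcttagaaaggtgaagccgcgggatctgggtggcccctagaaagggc
Hoxb4: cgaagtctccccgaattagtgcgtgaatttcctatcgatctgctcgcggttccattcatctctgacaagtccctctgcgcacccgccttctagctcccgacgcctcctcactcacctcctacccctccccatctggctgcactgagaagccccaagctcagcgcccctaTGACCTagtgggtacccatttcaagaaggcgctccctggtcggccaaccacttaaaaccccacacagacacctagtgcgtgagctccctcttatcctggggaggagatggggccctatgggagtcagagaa
Hoxa5 held 29 CpG dinucleotides at 61.7% GC, Hoxa7 9 at 55.7% and Hoxb4 14 at 58.0%. The median Hox window held 15 CpG and 58.0% GC, and the median of all 32851 windows 7 CpG and 52.7% GC. AGGTCA occurred in 6 of the 23 Hox windows and in 16.3% of all windows, and TGATNNAT, a core bound by Hox and Pbx proteins together, in 4 of 23 and in 8.85% of all. The 3 printed windows held 1, 0 and 1 copies of AGGTCA in the order given. These are matches of letters in short windows and not binding sites.

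In the HoxB cluster, Hoxb4, known for expanding blood stem cells when forced into them, was lower at passage 15 than in MEF and at passage 5. It read 6.88, 7.18 and 7.49 on the MEF arrays, 7.15, 7.28 and 7.55 at passage 5, 5.80, 5.71 and 5.93 at passage 15, and 6.42, 6.08 and 5.77 on the MES arrays. MEF and passage 5 overlapped, and every one of their arrays was above every passage 15 array, which in turn overlapped MES. Passage 15 differed from passage 5 by -1.52 (SE 0.186, limma adjusted p = 2.37e-04) and from MEF by -1.37 (SE 0.186, limma adjusted p = 2.76e-04). Set against MES, Hoxb4 was 1.24 higher at passage 5 and 1.09 higher in MEF. The MEF call against MES was lost without MEF replicate 3 or without MES replicate 3 (0.94 each). On the authors' values the passage 15 call against MEF was lost (-0.94), as were the calls of passage 5 and MEF against MES (0.88 and 0.77). With an offset of 50 the same calls were lost (-0.99, 0.93 and 0.81).

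Hoxb5, which acts in the developing gut nervous system, was higher on the arrays labelled MEF than in the other groups. It read 5.94, 6.34 and 6.45 on the MEF arrays, 5.60, 5.68 and 5.35 at passage 5, 4.84, 4.81 and 4.91 at passage 15, and 4.71, 4.99 and 4.55 on the MES arrays. The MEF, passage 5 and passage 15 arrays did not overlap, and no passage 15 or MES array was above background. Passage 15 was at least 2.12-fold below MEF (fitted difference -1.39, SE 0.147, limma adjusted p = 6.11e-05). MEF was at least 2.18-fold above MES. Both calls were lost on the authors' values (-0.81 and 0.91) and with an offset of 50 (-0.81 and 0.85). The difference of passage 5 from MEF was -0.70 (SE 0.147, limma adjusted p = 0.0115), under 2-fold. Passage 15 was at least 1.31-fold below passage 5 (fitted difference -0.69, SE 0.147, limma adjusted p = 0.00577), which was not called.

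Hoxb9, a gene of the thoracic level, read 5.60, 6.01 and 6.50 on the MEF arrays, 5.10, 5.06 and 5.12 at passage 5, 4.67, 4.99 and 5.31 at passage 15, and 4.84, 5.41 and 5.01 on the MES arrays. Only the MEF arrays stood clear of the rest. Passage 15 differed from MEF by -1.05 (SE 0.230, limma adjusted p = 0.00539), a call lost without MEF replicate 3 (-0.82) and without passage 15 replicate 1 (-0.89). The call was also lost on the authors' values (-0.61) and with an offset of 50 (-0.60). Passage 5 differed by -0.94 (SE 0.230, limma adjusted p = 0.0244), just short of 2-fold.

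Hoxb13, the end gene of the cluster and a factor of the tail and prostate, moved the other way on probe 1258611. It read 4.63, 4.86 and 4.57 on the MEF arrays, 5.03, 5.43 and 5.57 at passage 5, 5.77, 6.55 and 6.66 at passage 15, and 4.80, 5.00 and 5.32 on the MES arrays. No MEF array was above background and all 6 sphere arrays were. Passage 15 was at least 2.54-fold above MEF (fitted difference 1.64, SE 0.234, limma adjusted p = 3.82e-04) and 1.29 above MES (SE 0.234, limma adjusted p = 0.00776). The call against MES was lost under 4 alternatives, which were the authors' values (0.76), median scaling (0.96), an offset of 50 (0.78) and a fit of only these groups (limma adjusted p = 0.0532). The call against MEF was lost with an offset of 50 (0.95). The other Hoxb13 probe, 2418008, was above background on no array.

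Hoxb2, a hindbrain gene, read 6.13, 6.31 and 6.80 on the MEF arrays, 5.87, 5.90 and 5.65 at passage 5, 6.03, 5.70 and 5.43 at passage 15, and 5.26, 5.19 and 5.29 on the MES arrays. The MEF arrays were highest and the MES arrays lowest, without overlap with the spheres. MEF exceeded MES by 1.17 (SE 0.178, limma adjusted p = 7.94e-04), a call lost without MEF replicate 3 (0.98). The call was also lost on the authors' values (0.69) and with an offset of 50 (0.73). Hoxb7 probe 1233836 was above background on all 12 arrays, with 6.66, 6.72 and 6.72 in MEF, 6.24, 6.24 and 5.93 at passage 5, 6.22, 6.29 and 6.28 at passage 15, and 6.52, 6.29 and 6.24 with the MES arrays. Its differences were all under 2-fold, the widest being passage 5 from MEF (-0.56, SE 0.0949, limma adjusted p = 0.00332). With median scaling passage 15 differed from MEF by -1.02 (limma adjusted p = 0.00139).
Hoxb1, which sets the identity of a hindbrain segment, read 5.90, 5.82 and 5.48 in MEF, 6.09, 5.76 and 5.83 at passage 5, 5.53, 5.07 and 6.22 at passage 15, and 6.35, 6.07 and 6.26 with the MES arrays. Hoxb3 probe 2429949 read 4.99, 5.18 and 5.55 in MEF, 5.34, 5.00 and 5.36 at passage 5, 6.15, 5.23 and 5.99 at passage 15, and 5.72, 5.61 and 5.63 with the MES arrays. Neither of these genes was called in any of the 6 comparisons.

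**Figure D3:**
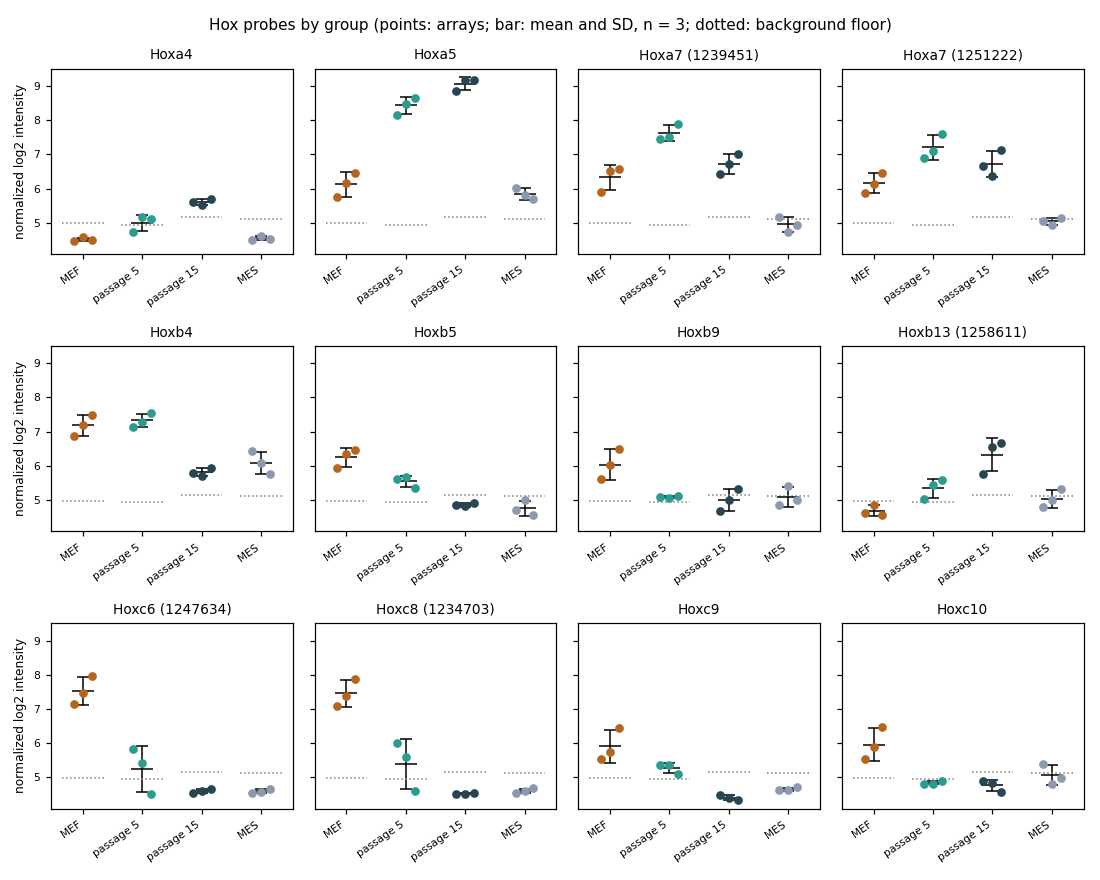
Normalized log2 intensity of 12 Hox probes on each array (points), with the group mean and SD (n = 3) and the mean background floor of each group (dotted). Hoxa4 is highest at passage 15 and Hoxa7 at passage 5, Hoxa5 is above MEF and MES at both passages (passage 15 is above passage 5 here, and below it with median scaling), Hoxb4 is lower at passage 15 than at passage 5, and the HoxC probes are at the floor at passage 15.

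In the HoxC cluster, Hoxc6 and Hoxc8, genes of the forelimb and thoracic levels, fell together on 1 probe each. Hoxc6 probe 1247634 read 7.13, 7.47 and 7.95 on the MEF arrays, 5.81, 5.40 and 4.51 at passage 5, 4.55, 4.58 and 4.66 at passage 15, and 4.54, 4.57 and 4.66 on the MES arrays. Hoxc8 probe 1234703 read 7.08, 7.39 and 7.88 in MEF, 6.01, 5.59 and 4.59 at passage 5, 4.50, 4.51 and 4.55 at passage 15, and 4.55, 4.58 and 4.67 with the MES arrays. Every MEF array lay above every other array, and passage 5 replicate 3 and all passage 15 and MES arrays were at background with both probes. Hoxc6 at passage 5 differed from MEF by -2.28 (SE 0.288, 4.85-fold lower, limma adjusted p = 6.43e-04), and Hoxc8 by -2.06 (SE 0.307, 4.16-fold lower, limma adjusted p = 0.00166). These means take in the passage 5 array at background, so that 2 of 3 passage 5 arrays measured either probe. Within chip 2 the differences were -1.70 and -1.44. Within chip 3 the array at background was at least 7.81-fold below MEF for Hoxc6 and at least 7.44-fold for Hoxc8. At passage 15 Hoxc6 was at least 5.13-fold and Hoxc8 at least 4.91-fold below MEF, with limma adjusted p of 3.87e-05 and 5.65e-05. MEF was at least 5.27-fold above MES for Hoxc6 and at least 5.04-fold for Hoxc8. On the authors' values the falls at passage 5 were smaller, -1.58 for Hoxc6 and -1.42 for Hoxc8.

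The raw fibroblast marker sum stood at 10900, 8120 and 3270 on the passage 5 arrays, lowest where Hoxc6 and Hoxc8 were lowest, and at 35300 to 47400 in MEF. Passage 5 replicate 3, with both probes at background, lacked a detected signal for Col1a2, Postn, Cd44 and Prrx1 and detected 7 of the 11 marker genes, against 9 and 10 on replicates 1 and 2. Col1a2 was undetected on all 3 passage 5 arrays and Postn on replicate 1 as well. Only Cd44 and Prrx1 were missing on replicate 3 alone. Thy1 read 9.51, 8.79 and 6.06 on the passage 5 arrays and 11.33, 11.57 and 12.20 in MEF. Col1a1 read 7.92, 7.24 and 5.78 at passage 5 and 12.61, 13.31 and 13.74 in MEF. On the MES arrays, where both HoxC probes were at background, Thy1 read 9.38, 8.95 and 9.23 and Col1a1 6.66, 6.37 and 6.15. Not every marker followed the passage 5 replicates: Twist1 read 6.57, 6.36 and 6.50 there and 7.41, 7.77 and 8.13 in MEF. The part of fibroblast content in the HoxC differences was not tested, and in bulk RNA fewer cells of a type cannot be told apart from less RNA per cell. Hoxa5 on the same 3 passage 5 arrays, 8.15, 8.49 and 8.66 after normalization, was highest on replicate 3. Its raw intensity, 484.3, 559.3 and 445.5, was lowest there.

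**Figure D4:**
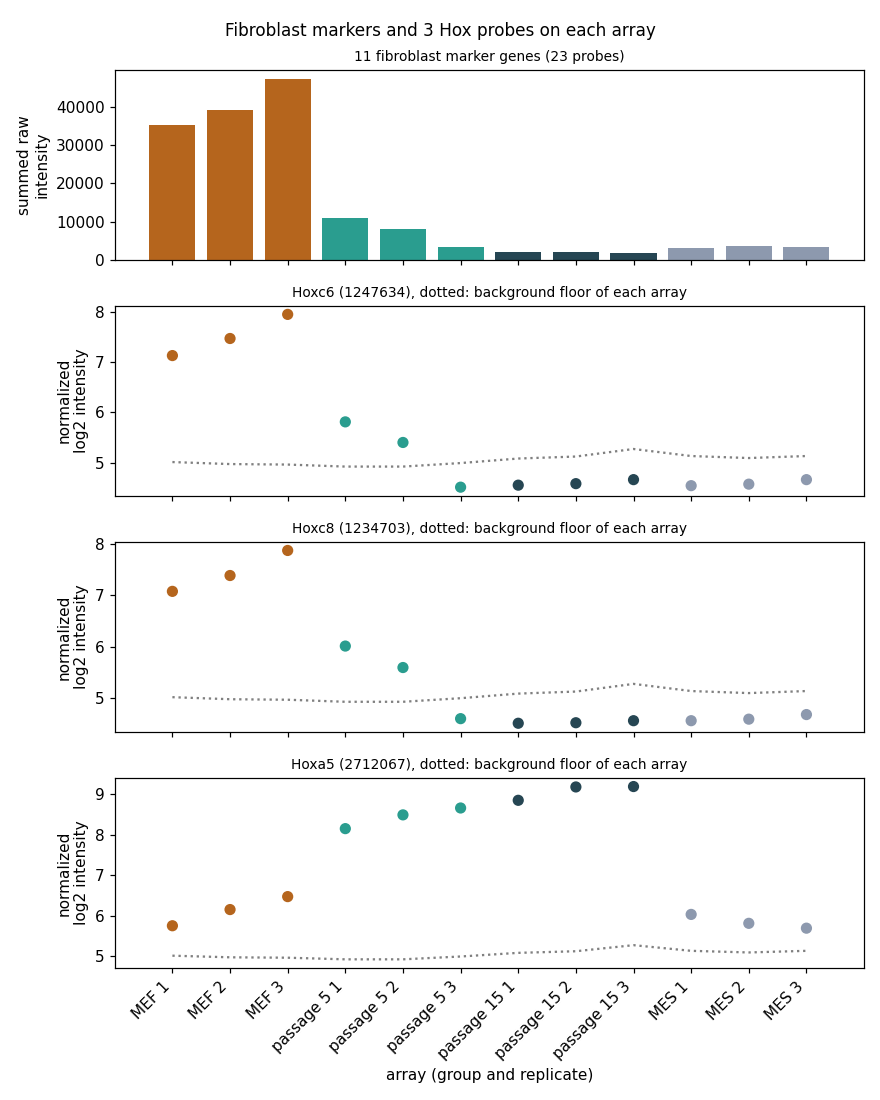
Summed raw intensity of 23 probes of 11 fibroblast marker genes on each array (bars), above the normalized log2 levels of Hoxc6, Hoxc8 and Hoxa5 (points) with each array's background floor (dotted). The marker sum, Hoxc6 and Hoxc8 are high on the MEF arrays and lowest within passage 5 on replicate 3, whereas Hoxa5 is above 8 on all sphere arrays.

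Hoxc9, which organises motor neurons of the thoracic cord, read 5.52, 5.75 and 6.43 on the MEF arrays, 5.35, 5.36 and 5.09 at passage 5, 4.48, 4.38 and 4.34 at passage 15, and 4.63, 4.61 and 4.70 on the MES arrays. The 4 groups did not overlap, and only MEF and passage 5 were above background. Passage 15 was at least 1.68-fold below MEF (fitted difference -1.50, SE 0.187, limma adjusted p = 1.63e-04), and MEF at least 1.72-fold above MES, a call that was lost without MEF replicate 3 (0.99). The call against MES was also lost on the authors' values (0.77). With an offset of 50 it was lost (0.68), as was the passage 15 call against MEF (-0.78). The difference of passage 5 from MEF was -0.64 (SE 0.187, limma adjusted p = 0.0577) and did not pass.

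Hoxc10, a gene of the lumbar level, read 5.52, 5.87 and 6.46 on the MEF arrays, 4.81, 4.81 and 4.89 at passage 5, 4.88, 4.82 and 4.57 at passage 15, and 5.39, 4.81 and 4.98 on the MES arrays. The MEF arrays stood above all others, and no sphere array was above background. Passage 5 was at least 2.01-fold below MEF (fitted difference -1.12, SE 0.217, limma adjusted p = 0.00728), and passage 15 at least 1.73-fold below (fitted difference -1.19, SE 0.217, limma adjusted p = 0.00175). Without MEF replicate 3 both calls were lost (-0.86 and -0.94), and the passage 5 call was also lost within chip 2 alone (-0.89). Both were lost on the authors' values (-0.64 and -0.71) and with an offset of 50 (-0.63 and -0.66).
Hoxc13, the end gene of its cluster and a regulator of hair keratins, was called in no comparison with MEF. It read 6.28, 6.17 and 5.78 in MEF, 6.53, 6.32 and 6.23 at passage 5, 5.62, 5.41 and 5.69 at passage 15, and 5.01, 5.32 and 5.16 with the MES arrays. Passage 5 overlapped MEF and lay above passage 15, and MES was lowest. Passage 5 exceeded MES by 1.20 (SE 0.140, limma adjusted p = 2.37e-04), and the difference of passage 15 from passage 5 (-0.79, SE 0.140, limma adjusted p = 0.00208) was under 2-fold. The call against MES was lost on the authors' values (0.70) and with an offset of 50 (0.73).

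Probes of 1 gene did not always move together. The second Hoxc8 probe, 2490430, read 5.00, 5.18 and 4.96 in MEF, 4.89, 5.04 and 4.96 at passage 5, 5.32, 5.55 and 5.81 at passage 15, and 5.57, 5.46 and 5.84 with the MES arrays. It lay near the floor, overlapped between passage 5 and MEF, and had a difference of 0.51 for passage 15 over MEF (SE 0.131, limma adjusted p = 0.0128). The second Hoxc6 probe, 2728212, was above background on no MEF array and on 2 arrays of each other group, with 0.39 for passage 15 over MEF (SE 0.124, limma adjusted p = 0.0354). The falls of Hoxc6 and Hoxc8 therefore each rest on 1 of 2 probes. For Hoxb3, Hoxb7 and Hoxb13 the second probe was above background on no array, and for Hoxa7 both probes moved alike.

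In the HoxD cluster only Hoxd9 passed the detection rule. It read 5.15, 5.10 and 5.04 on the MEF arrays, 5.40, 5.67 and 5.28 at passage 5, 5.34, 5.21 and 5.19 at passage 15, and 4.55, 4.60 and 5.02 on the MES arrays. The MES arrays, all at background, lay below every other array, so that differences from MES have only a bound. Passage 5 was at least 1.26-fold above MES (fitted difference 0.73, SE 0.129, limma adjusted p = 0.0026). Hoxd10, above background on 2 MEF arrays only, was at least 1.11-fold lower at passage 15 than in MEF (fitted difference -0.92, SE 0.198, limma adjusted p = 0.00482). No HoxD probe was called in any of the 6 comparisons.

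The 28 probes outside the detection rule, for 23 genes, ranged from 4.32 to 5.87, with a median of 4.55. Of these, 20 were above background on no array, 6 on 1 or 2 arrays and 2 on 3 or more. Hoxa2, a gene of the branchial arches, was above background on 2 passage 5 arrays and on no other. Hoxc4 had a pair of dim probes above background in MEF and passage 5 only. None of the 28 was called in any comparison. In 15 pairs of probe and comparison, for 7 of these probes, the limma adjusted p was under 0.05 with a fitted change under 2-fold, and at background the fitted change is not a measured fold.

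Hox proteins bind DNA together with Pbx and Meis proteins, and Meis1, Meis2 and Pbx2 differed between groups. Meis1 read 7.55, 7.70 and 8.47 on the MEF arrays, 7.78, 7.92 and 8.14 at passage 5, 5.80, 5.62 and 5.41 at passage 15, and 6.82, 6.79 and 6.97 on the MES arrays. Passage 15 was lowest without overlap, by -2.30 from MEF (SE 0.211, limma adjusted p = 2.54e-05), by -2.34 from passage 5 and by -1.26 from MES. Meis2 at passage 15 differed from MEF by -1.02. Of the 7 Meis and Pknox probes these were the only 2 called for passage 15 against MEF (11.7% of all probes), and none was called for passage 5 against MEF (3.99% of all). Pbx2 probe 2678303 read 5.31, 5.90 and 5.36 in MEF, 5.52, 5.74 and 5.81 at passage 5, 6.89, 7.07 and 7.15 at passage 15, and 6.83, 7.24 and 7.04 with the MES arrays. With this probe passage 15 and MES lay above MEF and passage 5, by 1.51 for passage 15 over MEF (SE 0.163, limma adjusted p = 6.6e-05). It was the only 1 of 5 Pbx probes called in that comparison. The other Pbx2 probe, 2701435, read 7.87, 7.64 and 7.80 in MEF and 8.55, 8.65 and 8.64 at passage 5. It read 8.65, 8.54 and 8.82 at passage 15 and 9.24, 8.81 and 9.02 with the MES arrays. With that probe passage 5 lay above MEF and overlapped passage 15.

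Among genes that handle retinoic acid, Cyp26b1 and Crabp1 fell at both passages. Of 21 probes for 17 genes, 2 were lower (2.39% of all probes) and none higher (1.60% of all) at passage 5 against MEF. At passage 15 against MEF 2 were higher (5.49% of all) and 2 lower (6.26% of all), with list medians of -0.04 at passage 5 and -0.09 at passage 15. Cyp26b1, which degrades retinoic acid, read 7.96, 8.62 and 9.20 on the MEF arrays, 7.36, 7.48 and 7.65 at passage 5, 5.20, 5.92 and 5.26 at passage 15, and 5.11, 5.76 and 5.55 on the MES arrays. It fell without overlap at passage 5 (-1.10, SE 0.302, limma adjusted p = 0.0432) and at passage 15 (-3.13, SE 0.302, limma adjusted p = 3.38e-05) against MEF. Crabp1, a carrier of retinoic acid in the cell, differed from MEF by -1.36 and -1.69 at these passages. The receptor genes Rarg and Rxrb (probe 1245492) were 1.13 and 1.10 higher at passage 15 than in MEF. The other Rxrb probe, 1226078, read 9.89, 9.52 and 10.12 at passage 15 and 9.70, 9.78 and 9.47 in MEF, which overlapped (0.19, SE 0.16, limma adjusted p = 0.426).

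Among the Polycomb genes, which keep Hox clusters silent, 1 of 18 PRC2 probes was higher and none lower at passage 5 against MEF, where 3.99% of all probes were called. At passage 15 against MEF 2 were higher, both of them Rbbp7 probes, and 1 lower, where 11.7% of all probes were called. The PRC2 median was 0.09 and 0.24 in these comparisons. Rbbp7, a histone-binding subunit, read 7.75, 7.76 and 7.24 on the MEF arrays with probe 1219275, 7.43, 7.81 and 7.21 at passage 5, 10.27, 10.30 and 10.31 at passage 15, and 7.88, 9.70 and 9.03 on the MES arrays. Passage 15 was above all others, by 2.71 over MEF (SE 0.371, limma adjusted p = 2.97e-04). Rbbp7 probe 2691192 rose alike, with 10.35, 10.66 and 10.50 at passage 15 and 8.13, 8.03 and 7.60 in MEF. Another Rbbp7 probe, 1243578, read 9.10, 9.15 and 9.53 at passage 15 and 8.84, 9.54 and 10.55 in MEF, where the groups overlapped. At passage 5 this probe read 9.92, 9.91 and 10.96, above every passage 15 array. Jarid2 was 1.04 lower on the log2 scale at passage 15 than in MEF, and Aebp2 1.15 higher at passage 5 than in MEF.
Of 14 PRC1 probes, none was higher and 1 lower at passage 5 against MEF (3.99% of all probes called), and 3 were higher and 1 lower at passage 15 (11.7% of all called). Bmi1 probe 1241909 read 7.06, 7.27 and 7.24 at passage 15 and 5.22, 5.34 and 5.03 in MEF, a difference of 1.99 (SE 0.340, limma adjusted p = 0.00119). The other Bmi1 probe, 2775931, read 6.96, 7.15 and 7.31 at passage 15 and 6.80, 6.95 and 7.52 in MEF, which overlapped. At passage 5 it read 7.22, 7.46 and 7.48, which overlapped passage 15. Phc2 differed from MEF by -1.49 at passage 5 and by -1.67 at passage 15. The 14 trithorax and H3K27 demethylase probes include factors that keep Hox genes active. None was called at passage 5 against MEF and 1 was higher at passage 15, Men1 probe 2773422, at least 1.66-fold above MEF. The other Men1 probe, 2629044, read 8.48, 8.65 and 8.78 at passage 15 and 8.45, 8.62 and 8.55 in MEF, which overlapped.

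**Figure D5:**
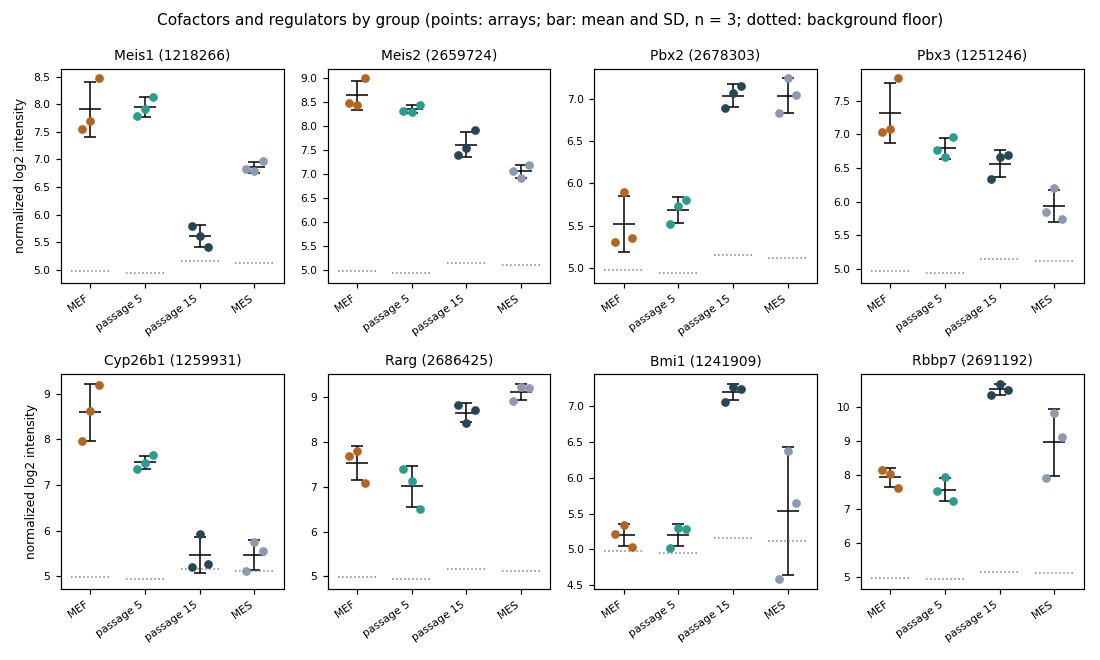
Normalized log2 intensity of probes for 8 cofactors and regulators on each array (points), with the group mean and SD (n = 3) and the mean background floor (dotted). The probe of each gene with the largest change is shown. Meis1 and Cyp26b1 drop at passage 15, and the probes shown for Pbx2, Bmi1 and Rbbp7 are higher there than in MEF and at passage 5. For each of Pbx2, Bmi1 and Rbbp7, another probe at passage 15 overlapped passage 5 or lay below it.

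Among the ParaHox and cluster-flanking homeobox genes, Cdx1 and Evx1 were lower in every other group than in MES. Of 12 probes for 11 genes, none was called at passage 5 or passage 15 against MEF. Against MES, 2 were lower at passage 5 (6.19% of all probes called), 2 lower and 1 higher at passage 15 (2.68% of all called), and 3 lower and 1 higher in MEF (8.65% of all called). Cdx1, an activator of Hox genes in the embryo, read 5.21, 5.21 and 4.90 on the MEF arrays, 5.07, 5.01 and 4.85 at passage 5, 4.79, 4.89 and 4.87 at passage 15, and 7.87, 7.42 and 7.87 on the MES arrays. Only the MES arrays were high, with differences of -2.74 for passage 5 (limma adjusted p = 1.91e-06) and -2.61 for MEF, and passage 15 was at least 5.91-fold below MES. Evx1, which lies beside the HoxA cluster, was likewise lower than in MES, by -1.63 at passage 5, at least 2.85-fold at passage 15 and by -1.41 in MEF. Cdx2 differed from MES by -1.21 in MEF. Meox1, a somite gene, was 1.46 higher at passage 15 than at passage 5, and higher than in MES by 1.85 at passage 15 and by 1.20 in MEF.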

How the data were processed

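Total RNA was measured on 12 Illumina bead arrays, 3 per group, and samples were grouped by their labels. The deposited raw table holds, per the file headers, an unnormalized linear intensity for each probe on each array, with values below 0, and a detection p-value per probe, which the authors deposited beside it. A deposited table by the authors holds quantile-normalized log2 values, and the series matrix holds the same values (largest difference 0). Its normalization tool is not given in the sources used here. With 3 arrays per group, their number limits the precision.

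Of 46657 probes, 20 were left out because a value had been turned into a date, none of them a Hox probe, which left 46637. Background correction and quantile normalization used neqc (limma 3.58.1, R 4.3.3, offset 16), which here estimated its negative controls by way of the detection p-values. The 4 group means were estimated together over the 12 arrays with lmFit and eBayes (8 residual and 2.08 prior degrees of freedom). Adjusted p-values are Benjamini-Hochberg over all 46637 probes within a comparison, and a call needed an adjusted p under 0.05 and at least 2-fold. No detection filter was used, so that every Hox probe was tested, dim or not. Tests are two-sided. Tested on simulated data for passage 5 against MEF, the fit on 46637 probes recovered 87% of changes of 1.5 and 99% of changes of 3 on the log2 scale, with 0 false calls. No pair of arrays held identical values, and arrays of a group correlated at 0.967 to 0.995.

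The platform annotation gave 1 symbol to 22380 probes and none to 24277, and 22366 of the analysed ones matched RefSeq by Entrez ID, with 0 symbols changed. Values on every array are given for Hox probes above background on all 3 arrays of a group or called in a comparison, and the others by range. Of each related list up to 4 called probes with the largest change may be named, and of markers Col1a1, Col3a1, Thy1, Pou5f1, Zfp42, Sox17 and Gata6. The detection gaps named for passage 5 replicate 3, Twist1, the Hox probes outside that rule and probes without a call are named after their values were seen. The members, lists and tests were chosen with earlier results of these data known. Levels of different probes are not compared as amounts of RNA. Alternatives covered the normalization, offset, detection filters, variance trend, groups in the fit, chip and replicate blocks, the fold threshold and each array left out.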

Additional observations from a re-analysis of the deposited data

Results flagged for a closer look

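Hoxb4 (probe 1241077) differed from MEF in another way at passage 15 than at passage 5. Its passage 15 effect minus its passage 5 effect was -1.52 on the log2 scale. Both effects share the MEF arrays, so this equals the direct comparison of passage 15 with passage 5, which was called in limma. It was the one Hox probe for which that comparison was called. All passage 15 arrays were on chip 1 and all passage 5 arrays on chips 2 and 3, and chip and passage cannot be told apart here. The difference was -2.25 with median scaling and -1.06 at its smallest among the alternatives tried.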

How the results depend on the processing

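The 35 called pairs of Hox probe and comparison gave 560 values under the alternatives. Of these, 506 kept direction and call, 54 kept direction but lost the call, and 0 reversed. Calls of Hoxa5 and of the Hoxc6 and Hoxc8 probes 1247634 and 1234703 were lost under none of the alternatives run. Most losses came with an offset of 50 (19 of 35 values), the authors' table (18 of 35) and MEF replicate 3 left out (7 of 24). The others came with median scaling (3), chip 2 alone (2), and, with 1 each, only the 2 groups in the fit and MEF replicate 1, MES replicate 3, passage 15 replicate 1 or passage 5 replicate 3 left out. Of 43 uncalled pairs with an adjusted p under 0.05, 1 changed sign with median scaling, Hoxa5 for passage 15 against passage 5 (-0.21), and 0 on the authors' table or with an offset of 50. On the authors' table the number of Hox probes called was 3 (1 higher, 2 lower) for passage 5 against MEF (2.61% of all probes). It was 5 (2 higher, 3 lower) for passage 15 against MEF (7.64% of all). Against MES it was 3 for passage 5 (3.44% of all), 3 for passage 15 (1.33%) and 2 for MEF (5.11%). With an offset of 50 it was 3 for passage 15 against MEF (7.72% of all probes). Against MES it was then 3 for passage 5 (3.46% of all), 3 for passage 15 (1.28%) and 2 for MEF (5.17%). With median scaling it was 6 for passage 15 against passage 5 (14.1% of all probes) and 3 for passage 15 against MES (1.66%). Passage 15 against MEF had 2 higher and 9 lower with that scaling (11.9% of all probes called). With no fold threshold it was 12 for passage 5 against MEF, 20 for passage 15 against MEF, 11 for passage 15 against passage 5, 12 for passage 5 against MES and 16 for MEF against MES. With each array left out in turn it ran from 5 to 7 for passage 5 against MEF, 8 to 11 for passage 15 against MEF, 1 to 4 for passage 15 against passage 5, 5 to 7 for passage 5 against MES, 5 to 5 for passage 15 against MES and 5 to 10 for MEF against MES. The cause of these shifts was not tested. Counts without a fold threshold and with an array left out are given without the share of all probes. They are not set against it. The stricter detection filter removed 6 of the 35 values.

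Replicate numbers are shared between groups. Same-numbered arrays of passage 5 and MEF correlated in their deviations at 0.06, 0.30 and 0.22, each best with its own number, and those of passage 15 and MEF at 0.00, -0.08 and -0.06, so the numbers were not taken as pairs. With the replicate block, 6, 10, 1, 5, 5 and 8 Hox probes were called for passage 5 against MEF, passage 15 against MEF, passage 15 against passage 5, and passage 5, passage 15 and MEF against MES, and no call changed. With chip as a random block the consensus correlation was -0.02. Signal over background limits the 28 probes that passed in no group.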
